A study of Mus musculus with 30 samples.

Results

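A group of 10 genes of the cell-cycle engine was followed across 6 antibodies in mouse neuroblastoma cells at low and high oxygen. They were taken by name, with earlier results of these data known, and are 10 of 21887 protein-coding genes. The list holds the D-type cyclin genes Ccnd1 and Ccnd2, their partner kinase Cdk4, the inhibitor Cdkn1b (p27), the E-type cyclin genes Ccne1 and Ccne2, and the later-acting Ccna2, Ccnb1, Ccnb2 and Cdk1. A gene window was the RefSeq gene interval of GRCm38.p6 (mm10), with 1 kb to each side. Chromatin immunoprecipitation and sequencing had been done in N1E115 cells, a mouse neuroblastoma line labelled NOS1+ in all groups, kept for 3 days at 4% O2 or at 20% O2. The antibodies recognised histone H3 acetylated at lysine 9 (H3K9ac), CTCF, an insulator protein, RAD21, a subunit of cohesin, RNA polymerase II (POLR2), and its forms with a phosphate on serine 5 (POLR2S5) or on serine 2 (POLR2S2) of the tail. Each antibody had 2 libraries per O2 level, 24 libraries in all. Replicates 1 and 2 of a group ran on different flow cells and are called rounds 1 and 2. The labels name no step that synchronises the cells, and in such bulk chromatin the share of cells with a bound site and the amount bound per cell cannot be told apart.

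Cyclins are regulatory subunits that rise and fall through the cell cycle and switch on cyclin-dependent kinases. D-type cyclins with Cdk4 begin to phosphorylate the retinoblastoma protein in G1, which frees E2F factors to switch on genes for DNA replication, among them those of E-type cyclins. Cyclin A2 acts in S phase and G2, and the B-type cyclins with Cdk1 drive entry into mitosis. Cdkn1b binds cyclin-kinase complexes and holds them inactive. Genes needed late in the cycle often carry CCAAT boxes and a cell-cycle homology region (CHR) near their start, where complexes of the DREAM and MYBL2 families bind. Polymerase with serine 5 phosphate is abundant near gene starts and polymerase with serine 2 phosphate over transcribed gene bodies. H3K9ac marks active starts, and CTCF with cohesin anchors chromatin loops. N1E115 cells derive from a sympathetic tumour, a tissue where MYCN and cyclin D1 are known for high activity.

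Lists held 26908 to 126873 peaks for H3K9ac, CTCF and RAD21 and 11172 to 24635 islands for the polymerase forms, with 2.06 to 16.6 M reads inside the islands of a polymerase library. Island reads are not the depth of a library, and that depth is unknown. For each polymerase form, island reads were fewest in 20% O2 round 1, and so were peaks of H3K9ac and of RAD21. H3K9ac was called at 11, 12, 11 and 11 of 12 sympathetic neuroblast markers (4% O2 rounds 1 and 2, then 20% O2 rounds 1 and 2). It was called at 1 to 3 of 5 markers each for astrocytes, oligodendrocytes or Schwann cells, macrophages or microglia, endothelium and fibroblasts. Islands lay at 12, 12, 9 and 12 of the neuroblast markers for POLR2S5 and 11, 11, 10 and 10 for POLR2S2. Markers of oligodendrocytes or Schwann cells had islands at 3, 4, 4 and 4 of 5 for POLR2S5 and 4, 4, 3 and 4 for POLR2S2, and those of the other types at 0 to 3 of 5. All libraries are labelled as N1E115 cells. Whether cells of other types were present, or had a part in the values below, was not tested. Nothing in the labels says that libraries came from separate cultures, so the spread behind each p-value may be technical.

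RefSeq promoter sequences, 250 bases before and 50 after the gene start, were at hand for 6 of the 10 genes: Cdk4, Cdkn1b, Ccne1, Ccnb1, Ccnb2 and Cdk1. Ccnd1, Ccnd2, Ccne2 and Ccna2 had no entry, so their strand and start were not used here. The stretches below run from 250 bases before the start through the first 20 bases of the gene and show the late-acting genes Ccnb1, Ccnb2 and Cdk1 beside Cdk4, the G1 kinase gene. Capitals mark CCAAT boxes (CCAAT, or ATTGG on the other strand), CHR elements (TTTGAA) and E2F sites (TTTCGCG) in the first 3, and the E-box CACGTG in Cdk4. They lie at chr13:100786467-100786736, chr9:70421535-70421804 and chr10:69352893-69353162, all on the minus strand, and at chr10:127063285-127063554 on the plus strand.

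Ccnb1: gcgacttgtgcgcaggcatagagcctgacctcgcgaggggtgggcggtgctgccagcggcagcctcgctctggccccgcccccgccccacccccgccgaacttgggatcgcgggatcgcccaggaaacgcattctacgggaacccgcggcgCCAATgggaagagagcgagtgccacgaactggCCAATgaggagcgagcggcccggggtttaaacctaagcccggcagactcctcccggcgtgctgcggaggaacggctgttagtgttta
Ccnb2: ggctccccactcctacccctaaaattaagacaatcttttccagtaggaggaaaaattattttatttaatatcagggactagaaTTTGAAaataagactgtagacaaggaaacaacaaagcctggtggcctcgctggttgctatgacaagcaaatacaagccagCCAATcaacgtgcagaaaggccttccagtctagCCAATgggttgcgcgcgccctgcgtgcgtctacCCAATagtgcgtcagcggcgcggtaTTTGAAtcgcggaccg
Cdk1: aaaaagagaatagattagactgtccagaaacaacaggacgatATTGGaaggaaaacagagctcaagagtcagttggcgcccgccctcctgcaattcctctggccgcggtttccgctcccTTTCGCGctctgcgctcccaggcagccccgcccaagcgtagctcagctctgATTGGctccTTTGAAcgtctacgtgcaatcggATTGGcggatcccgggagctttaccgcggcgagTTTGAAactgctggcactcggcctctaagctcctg
Cdk4: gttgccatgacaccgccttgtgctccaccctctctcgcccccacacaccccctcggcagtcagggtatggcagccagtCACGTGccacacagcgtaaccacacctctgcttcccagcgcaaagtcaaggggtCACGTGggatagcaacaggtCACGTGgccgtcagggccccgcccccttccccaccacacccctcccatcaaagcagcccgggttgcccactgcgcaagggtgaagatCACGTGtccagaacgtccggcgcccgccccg

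Motifs were searched on both strands of the 300 base windows. A CHR element (TTTGAA or TTCGAA) was found in Ccnb2, at 167 bases before and 4 bases after the start, and in Cdk1, at -71 and -15, and in 19.2% of all 32851 promoters. A CCAAT box was found in Ccnb1 at -99 and -67, in Ccnb2 at -87, -54 and -21, in Cdk1 at -208, -80 and -48, and 3 times in Cdkn1b, against 37.4% of all promoters. In each of the 3 late-acting genes the neighbouring boxes nearest to the start lay 32 or 33 bases apart, measured from start to start. The outer pair of Cdk1 lay 128 bases apart and the boxes of Cdkn1b 126 and 80. Spacing was not part of the planned search and was not counted over all promoters, so no background share stands beside it. An E2F site (TTTCCCG or TTTGGCG or TTTCGCG) was found in Cdk1 at -131 and in 5.58% of all promoters. The core of the hypoxia response element (ACGTG or GCGTG) was found in 6 of 6, against 43.8% of all promoters. In Cdk4 its 8 matches were the 2 strands of 4 copies of CACGTG, at -172, -118, -98 and -11. CACGTG, the letters bound by MYC-family factors, was looked at after this was seen. At least 1 copy stood in 7.15% of all promoters, and at least 4 stood in 8 of 32851. Such matches describe letters and do not show binding.

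Acetylation lay on both sides of the start, with a gap at or just before it, at 5 of the 6 genes whose start was known, and on 1 side only at Ccnb2. H3K9ac was called at 9 of the 10 gene windows in all 4 libraries, where 58.9% of all genes were, and at Ccnd2 in none; 64.8% of all genes were called in at least 1 library. At Cdk4, Cdk1 and Ccnb1 the gap lay over most of the stretch printed above. At Cdk4 the peak upstream ended 269, 266, 314 and 260 bases before the start and the next began 90, 77, 90 and 73 bases after it (4% O2 rounds 1 and 2, then 20% O2). At Cdk1 the gap measured 415, 261, 277 and 294 bases, and at Ccnb1 283, 264, 272 and 224 bases. These 3 genes thus had a gap in all 4 libraries, although in 20% O2 round 2 the downstream peak of Ccnb1 reached over the start base. At Ccne1 it measured 884 and 363 bases at 4% O2 and 578 and 262 bases at 20% O2, and at Cdkn1b 74 and 105 against 128 and 64 bases. The start base itself was uncovered with peaks within 1 kb on both sides in all 4 libraries at Cdk4 and Cdk1, 2 of 6, where 11.6% of all promoters were.

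Ccnb2 stood apart among the 6. It had 1 H3K9ac peak per library, of 354 and 302 bp at 4% O2 and 208 and 572 bp at 20% O2. That peak lay upstream of the start in both libraries of round 1 and inside the gene in both libraries of round 2, so rounds, not O2 levels, shared its place. Its score stood at the 3.03 and 26.8 percentiles of the lists at 4% O2 and at 28.9 and 44.6 at 20% O2. At Cdkn1b, by contrast, peaks covered 6989, 7020, 6997 and 7003 bp of the window and the highest peak stood at or above the 98.8 percentile in every list.

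**Figure D1:**
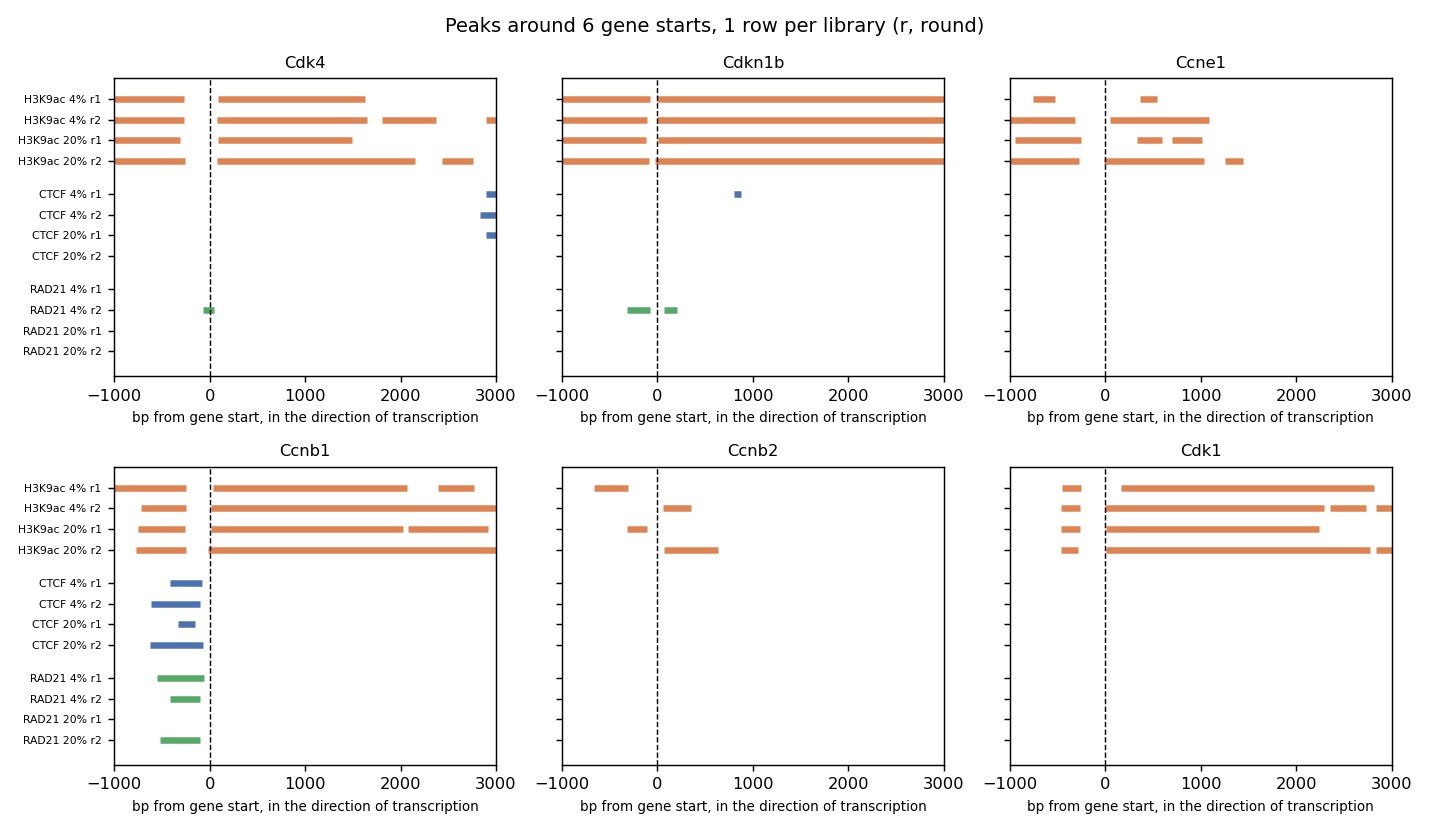
Peaks of H3K9ac, CTCF and RAD21 from 1 kb before to 3 kb after the start of 6 genes, as bars in 1 row per library; x is the distance from the gene start in bp and the dashed line marks the start. Acetylation lies on both sides of the start except at Ccnb2, Ccnb1 has CTCF just upstream in 4 of 4 libraries with RAD21 in 3, and Cdk1 has neither protein in any library.

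The D-type cyclin genes differed in kind. Ccnd1 (chr7:144929931-144939831) carried H3K9ac, islands of all 3 polymerase forms, CTCF and RAD21 in every library. Ccnd2 (chr6:127125162-127152188) had no H3K9ac peak and no polymerase island in any of 16 libraries. No call means that no signal passed the authors' thresholds at an unknown depth.

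Ccnd2 still had a CTCF site inside the gene, at chr6:127147557-127148314, in 4 of 4 libraries, and RAD21 was called on it at chr6:127147632-127148302 in 4 of 4. A further CTCF site at chr6:127141769-127142910, without RAD21, was called in 3 of 4 libraries and not in 4% O2 round 2. Ccnd1 had 3 CTCF sites in all 4 libraries, at chr7:144931221-144932397, chr7:144935584-144936484 and chr7:144937217-144938041, each overlapped by RAD21. The strongest of them stood at the 95.3, 97.8, 98.5 and 96.6 percentiles of the CTCF lists and its RAD21 peak at the 96.0, 97.7, 98.0 and 97.9 percentiles, in the order of libraries above. H3K9ac joined the CTCF sites at the upper end of the Ccnd1 interval, in a region at chr7:144937665-144941617 called in 4 of 4 libraries.

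**Figure D2:**
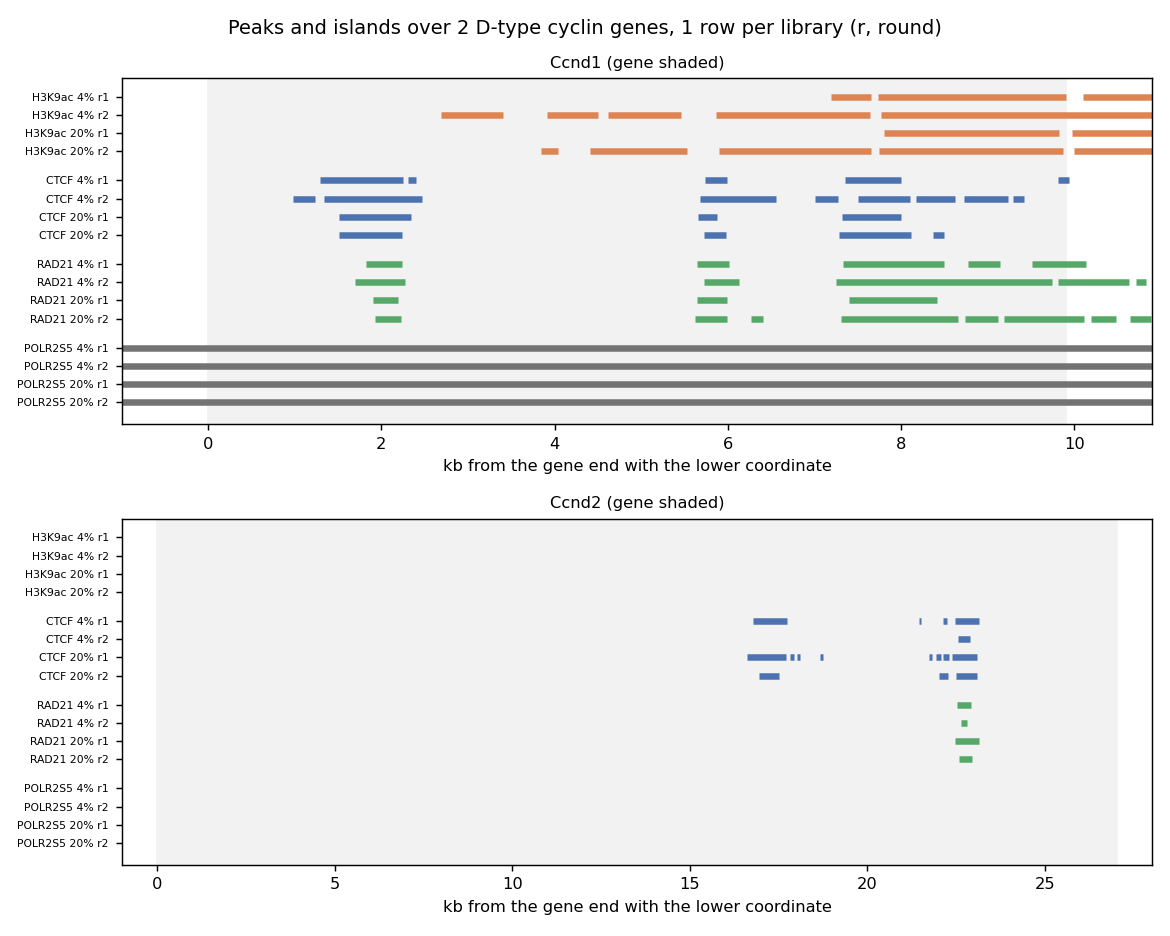
Peaks and POLR2S5 islands over Ccnd1 and Ccnd2, 1 row per library; x is the distance in kb from the gene end with the lower coordinate, and the gene is shaded. Ccnd1 is covered by polymerase with 3 CTCF and RAD21 sites, and Ccnd2 has CTCF and RAD21 alone.

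Among the other genes, CTCF was called in all 4 libraries at Ccna2, Ccnb1 and Ccnb2. With Ccnd1 and Ccnd2 these make 5 of 10, against 51.6% of all gene windows, and RAD21 was called in all 4 at 4 of 10, against 34.6%. In at least 1 library, CTCF was called at 9 genes and RAD21 at 7, against 68.3% and 55.9% of all genes. The counts for all 4 libraries lay near the background. The Ccna2 site, at chr3:36571925-36572666 near the upper end of the gene, carried RAD21 in 4 of 4 libraries. At Ccnb1 a CTCF site at chr13:100786551-100787116, centred 348 bases before the start, was called in all 4, and RAD21 on it in 3. The exception was 20% O2 round 1, the shortest RAD21 list. CTCF overlapped the 300 base promoter in all 4 libraries at Ccnb1 alone of the 6, where 9.27% of all promoters were overlapped. A second Ccnb1 site, at chr13:100779909-100780842 inside the gene, had CTCF in 4 of 4 libraries and no RAD21.

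Ccnb2 had CTCF inside the gene in 4 of 4 libraries at chr9:70408756-70409230 and chr9:70416437-70416792, with RAD21 on the former in 4 and on the latter in 3, again without 20% O2 round 1. Cdk1 had no CTCF or RAD21 peak in any library, and Ccne1 and Ccne2 had no RAD21 peak. Cdk4 had a CTCF peak in 3 libraries and RAD21 in 1, and Cdkn1b each of them in 1.

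No gene of the 10 was called at one O2 level only for any of the 6 antibodies. Such a call means both libraries of that level and neither library of the other. Among all genes called in at least 1 library, the shares called in both 4% O2 libraries only were 0.0776% for H3K9ac, 0.635% for CTCF, 0.76% for RAD21, 0.427% for POLR2, 0.248% for POLR2S5 and 2.44% for POLR2S2. The shares for 20% O2 only were 0.338%, 0.0535%, 1.13%, 0.253%, 0.389% and 0.292%. With such shares a count of 0 among 10 genes says little. Single sites gave the same count: of 31 H3K9ac, 34 CTCF and 14 RAD21 sites at these genes, 16, 9 and 6 were called in all 4 libraries, against 39.9%, 28.4% and 23.7% of all sites at gene windows, and 0 in both libraries of 1 level only. Over all gene windows 1.75%, 1.75% and 1.25% of sites were called at 4% O2 only and 0.754%, 0.53% and 0.78% at 20% O2 only.

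Peak scores were compared by rank among the sites called in all 4 libraries of an antibody, so that each library ranked the same sites. A site is the merged stretch of overlapping peaks and takes, per library, the highest score of any peak in it. A rank of 100 is the strongest. These ranks have no test, since 2 libraries against 2 cannot give an exact two-sided permutation p below 0.333.

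Cohesin ranked lower at 4% O2 on the Ccnd2 site and on 1 of 3 Ccnd1 sites, and higher on the other 2 Ccnd1 sites. RAD21 on the Ccnd2 site had ranks of 32.9 and 21.6 at low oxygen, against 88.4 and 55.4 at high oxygen. The groups did not overlap, and the difference was -55.5 points in round 1 and -33.8 in round 2. CTCF on it ranked at 94.6 and 41.3 against 94.7 and 75.1, with groups that overlapped. At the Ccnd1 site at chr7:144935584-144936484, RAD21 had ranks of 51.0 and 48.8 at low oxygen, against 37.5 and 14.0. CTCF there ranked at 44.0 and 60.4 against 34.9 and 35.6. Both proteins were thus higher at 4% O2 with no overlap. At the Ccnd1 site at chr7:144931221-144932397, RAD21 ranked at 29.7 and 43.9 against 0.679 and 19.9 and CTCF at 67.4 and 80.2 against 62.7 and 66.4, also without overlap. The rank of 0.679 came from a score of 3.35, near the lowest of its list, in 20% O2 round 1, the shortest RAD21 list. The strongest Ccnd1 site had RAD21 ranks of 93.6 and 92.7 against 97.8 and 94.2, lower at 4% O2 with no overlap, as at Ccnd2 but by -4.28 and -1.47 points.

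In all, RAD21 groups did not overlap with higher ranks at 4% O2 at 2 of 6 sites and with lower ranks at 2 of 6, against 15.8% and 16.9% of all such sites. For CTCF the counts were 2 and 0 of 9, against 10.3% and 9.72%. For H3K9ac they were 3 and 4 of 16, against 13.6% and 12.8%. Ranks were higher in both rounds at 4 of 16 H3K9ac, 4 of 9 CTCF and 3 of 6 RAD21 sites, against 27.5%, 27.6% and 28.4% of all such sites. They were lower in both rounds at 6, 3 and 2 sites, against 27.2%, 27% and 29.1%. H3K9ac upstream of Cdk4 lay in a merged site at chr10:127058380-127063275 that reached beyond the gene window. This site had ranks of 85.6 and 91.9 at low oxygen, against 49.4 and 73.0. In 20% O2 round 2 its score, 57.8, came from a peak outside the window, above the 56.2 of the peak that reached into it. The peak upstream of Ccnb1 ranked at 99.2 and 91.6 against 86.0 and 75.3, and that upstream of Cdkn1b at 96.5 and 94.7 against 52.6 and 88.9. The ranks of 49.4 at Cdk4 and 52.6 at Cdkn1b came from 20% O2 round 1, the shortest H3K9ac list. These 3 sites upstream of a start were higher at 4% O2, and other upstream sites were not. The peak upstream of Ccne1 was lower, at 2.59 and 14.8 against 28.2 and 37.0, and that upstream of Cdk1 was split by round, at 12.1 and 4.29 against 35.4 and 4.03. Lower without overlap were also sites of Ccnd1, at 81.9 and 80.2 against 88.5 and 86.5, of Ccne2, at 26.0 and 26.3 against 31.6 and 42.0, and of Ccna2, at 22.3 and 35.7 against 47.0 and 37.9.

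**Figure D3:**
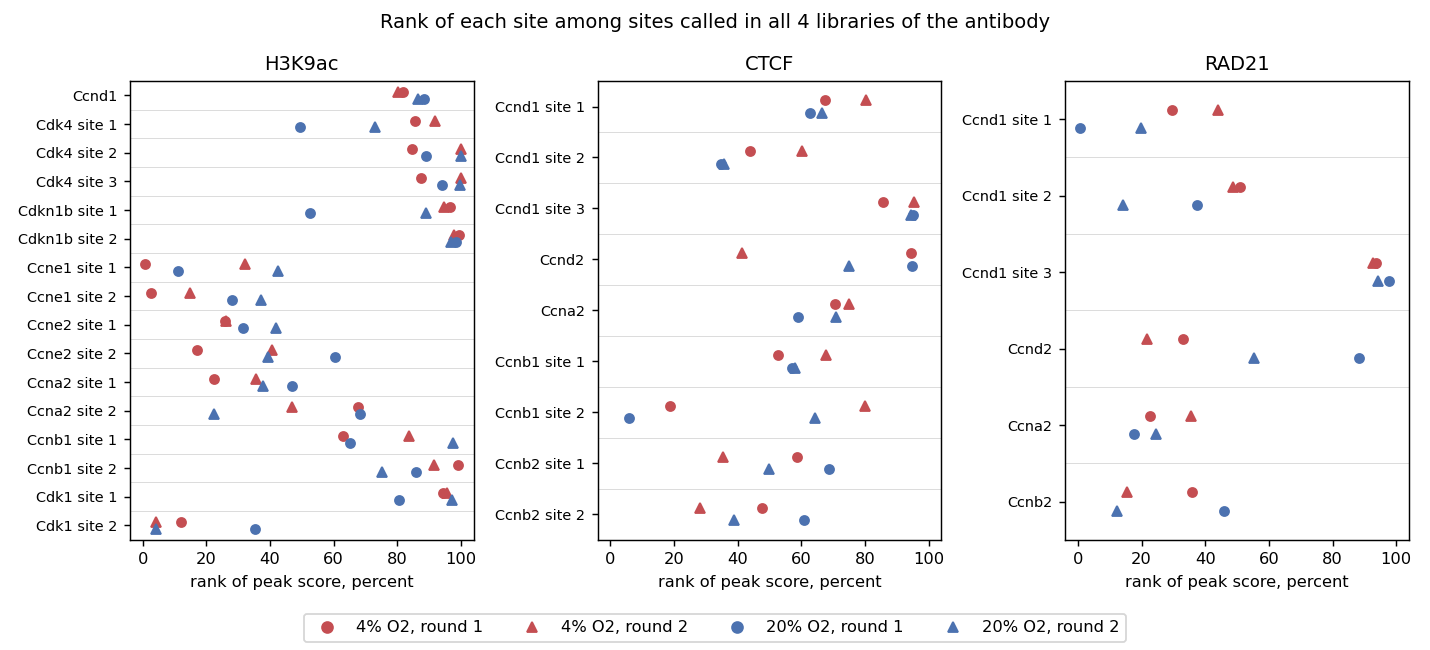
Rank of the peak score, in percent, of each site at these genes that was called in all 4 libraries of H3K9ac, CTCF or RAD21; sites of a gene are numbered by coordinate, circles are round 1, triangles round 2, red 4% O2 and blue 20% O2. RAD21 on the Ccnd2 site lies at 32.9 and 21.6 (red), below 88.4 and 55.4 (blue), and the first 2 Ccnd1 sites show the opposite order.

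By mean density of POLR2 and POLR2S5, Cdk4, Ccnd1, Cdkn1b and Ccnb1 came first and the E-type cyclin Ccne1, Ccnb2 and Ccnd2 last. For POLR2S2, Cdkn1b came after Cdk1 and Ccna2, with no island in 1 library. Density is the number of island reads in the window, shared out by length, per kb of window and per 1 M island reads of the library. Islands of a form were called in all 4 libraries at 7 of 10 genes for POLR2, 9 for POLR2S5 and 8 for POLR2S2, against 42.2%, 52.7% and 42.8% of all genes. For POLR2S5, Cdk4 had 7.76 and 7.15 at low oxygen against 10.9 and 8.75 at high oxygen, and Ccnd1 had 8.47 and 4.81 against 13.8 and 6.79. Cdkn1b had 8.21 and 6.38 against 9.67 and 6.02, and Ccnb1 5.27 and 3.53 against 11.8 and 5.65. The median of all genes with an island was between 1.84 and 2.0001 in these libraries, so all 4 genes lay above it in every library. Cdk1 averaged 4.33 ± 1.21 (SD, n = 4 libraries), Ccna2 4.26 ± 1.92 and Ccne2 3.26 ± 0.448. Ccne1 averaged 1.48 ± 0.489, Ccnb2 0.465 ± 0.187 and Ccnd2 0.

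In the POLR2S5 order the ranges of neighbours overlapped from Cdk4 down to Ccne2 and were apart from Ccne2 to Ccne1, from Ccne1 to Ccnb2 and from Ccnb2 to Ccnd2. For POLR2 the neighbours Ccne1 and Ccnb2 had separate ranges. For POLR2S2 the ranges were apart from Ccne2 to Ccne1 and from Ccnb2 to Ccnd2. The B-type cyclin genes thus sat at different levels. Ccnb1 averaged 9.86 ± 5.73 for POLR2 where Ccnb2 averaged 0.211 ± 0.25, and Ccnb2 had POLR2 islands in round 2 alone. Missing islands elsewhere were those of POLR2 at Cdk1 in 4% O2 round 1 and of POLR2S2 at Cdkn1b in 20% O2 round 1.

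**Figure D4:**
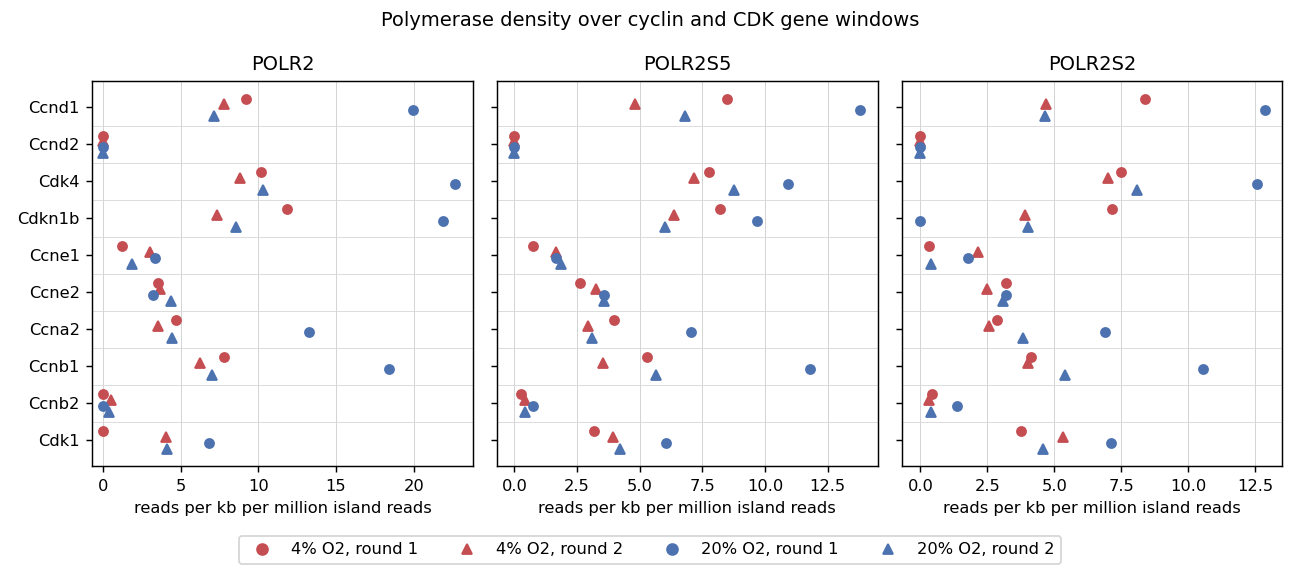
Polymerase density, in reads per kb of gene window per 1 M island reads, of the 10 genes in each library; a point at 0 has no island. Cdk4, Ccnd1, Cdkn1b and Ccnb1 have the highest means for POLR2 and POLR2S5, Ccnd2 lies at 0 in all 12 libraries, and the 20% O2 library of round 1 lies highest for several genes.

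Many islands ran past the gene, so their reads are shared with neighbours. Islands at Cdk4 spanned 16.0 to 65.4 kb and 2 to 8 other genes, with Tspan31 and Marchf9 among them in every library. Those at Ccnd1 also held LTO1, at Ccna2 Exosc9 and in part Bbs7, and at Ccnb1 Cenph. Those at Ccne2 could hold Ints8 and those at Ccnb2 Rnf111. Islands at Cdkn1b, Ccne1 and Cdk1 held no other gene.

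No gene passed the test for a difference between O2 levels. Reads of the islands in each window were compared with edgeR's quasi-likelihood test over the 9245, 11534 and 9364 genes with an island in all 4 libraries of POLR2, POLR2S5 and POLR2S2. At an adjusted p under 0.05, 0 genes were called in either direction (0%), with 341, 398 and 592 at an unadjusted p under 0.05. With the round as a block 0 were called too (0%), with 734, 1068 and 882 at an unadjusted p under 0.05. DESeq2 called 114, 258 and 160 genes, 0 of the 10 among them. The values of the 10 genes below are therefore given as sizes with their errors, and none is called a change. Ratios are log2 of 4% over 20% O2 with the standard error, n = 2 libraries per level.

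The late-acting genes had POLR2S5 ratios below 0. The 4 values were the lowest among the 9 genes tested in the fit without the block, at -1.14 ± 0.56 for Ccnb2, -0.89 ± 0.47 for Ccna2, -0.58 ± 0.45 for Cdk1 and -0.34 ± 0.44 for Ccnb1. For POLR2S5 the lowest adjusted p from edgeR of any of the 10 genes was 0.961 without and 0.50 with the block. The median of all genes was -0.03 and their quartiles were -0.38 and 0.38.

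Ccnb2, a B-type cyclin, had 11.3 and 6.42 POLR2S5 island reads per 1 M scaled reads (TMM) at low oxygen, against 26.2 and 13.0. Its unscaled reads were 121 and 83 against 144 and 166, of which those of round 1 were close to the 114 and 124 of Ccne1. Ccna2, cyclin A2, had 44.9 and 29.9 against 84.9 and 53.5. Both genes were lower at 4% O2 in both rounds, by -1.22 and -1.02 for Ccnb2 and -0.92 and -0.84 for Ccna2. Cdk1, the mitotic kinase, had 74.8 and 88.0 against 150.9 and 92.2, with round values of -1.01 and -0.07. The groups of these 3 genes did not overlap, which 16.8% of all genes tested showed in this direction. Without the 20% O2 library of round 1, the ratios became -0.54 for Ccnb2, -0.50 for Ccna2, -0.16 for Cdk1 and 0.04 for Ccnb1, and Ccne1, at -0.69, was then the lowest. The order of the genes also changed with the block, where Ccne1 at -0.52 lay below Ccnb1 at -0.31. With reads shared out by length Ccnd1 at -0.57 lay below Ccna2 at -0.49 and Cdk1 at -0.47. Per kb of island Ccnd1 at -0.71 lay below all of the late-acting genes but Ccnb1.

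For total polymerase, Ccna2 had a ratio of -0.94 ± 0.51, with rounds at -1.16 and -0.53, and Ccnb1 -0.67 ± 0.56, with rounds at -0.88 and -0.29. Without the 20% O2 library of round 1 these shrank to -0.20 and -0.01. The median density of all genes with a POLR2 island was 2.88 in that library and 1.74 to 1.86 in the other 3, and it held 2.06 M island reads against 5.93 to 10.2 M. For POLR2S2, Cdk1 had -0.64 ± 0.40, Ccnb1 -0.56 ± 0.50, Ccnb2 -0.39 ± 0.56 and Ccna2 -0.33 ± 0.44. Cdk1 was again lower with no overlap, at 83.6 and 115.7 on the same scale against 171.5 and 139.7, which 17.8% of all genes were. Its ratio was -0.49 without the 20% O2 library of round 1. Ccnb1 split by round, at -1.33 and 0.24.

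The ratios of genes that act in G1 varied in sign. Cdk4 had 0.20 ± 0.55, 0.22 ± 0.44 and -0.13 ± 0.33 for POLR2, POLR2S5 and POLR2S2, and its rounds differed in sign for each form. Cdkn1b had -0.02 ± 0.53 and 0.05 ± 0.45 for the first 2 forms, also with rounds of opposite sign. Ccnd1 had -0.54 ± 0.55, -0.24 ± 0.48 and -0.40 ± 0.42. Without the 20% O2 library of round 1 these turned to 0.06, 0.34 and 0.06. Ccnd2 had no island to compare.

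The E-type cyclin genes, which act at the G1 to S boundary, differed from each other. Ccne2 had 0.03 ± 0.44, 0.12 ± 0.39 and 0.41 ± 0.46, and lay above 0 in both rounds for POLR2S5 and POLR2S2. Ccne1 had -0.34 ± 0.59, -0.24 ± 0.83 and 0.13 ± 1.09. Its POLR2S2 value was -2.21 in round 1 and 2.39 in round 2, from 59 and 495 reads at 4% O2 and 121 and 50 at 20% O2.

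Across the genes tested, the median ratio was -0.34 for POLR2 (7 genes), -0.24 for POLR2S5 (9) and -0.36 for POLR2S2 (8), beside -0.01, -0.03 and 0.01 over all genes. By round it was -0.69 and -0.29, -0.78 and 0.04, and -0.56 and 0.07, so that for the phosphorylated forms the difference lay in round 1. Genes lower in both rounds numbered 4 of 7, 3 of 9 and 2 of 8, against 32%, 33% and 31.3% of all genes, and those higher in both 0, 1 and 1, against 25.9%, 27.3% and 30.6%.

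With reads divided by island length, the all-gene medians shifted to -0.57, -0.34 and -0.46. On that scale Ccna2, Ccnb1, Ccnb2 and Cdk1, and also Cdk4 and Ccne1, were at or below the median of all genes for each form tested. Cdk1 lay at it for POLR2S2, and Cdk4 and Ccnb1 were -0.03 and -0.07 from it for POLR2. The standard errors of these ratios were 0.45, 0.71 and 0.72. The value furthest from it was -0.73, for Ccnb1 with POLR2S5 (standard error 0.54). Above it lay Ccnd1 and Cdkn1b for POLR2, both at 0.13, Cdkn1b for POLR2S5 at 0.15 and Ccne2 for POLR2S2 at 0.01. As many genes lie below a median as above it.

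**Figure D5:**
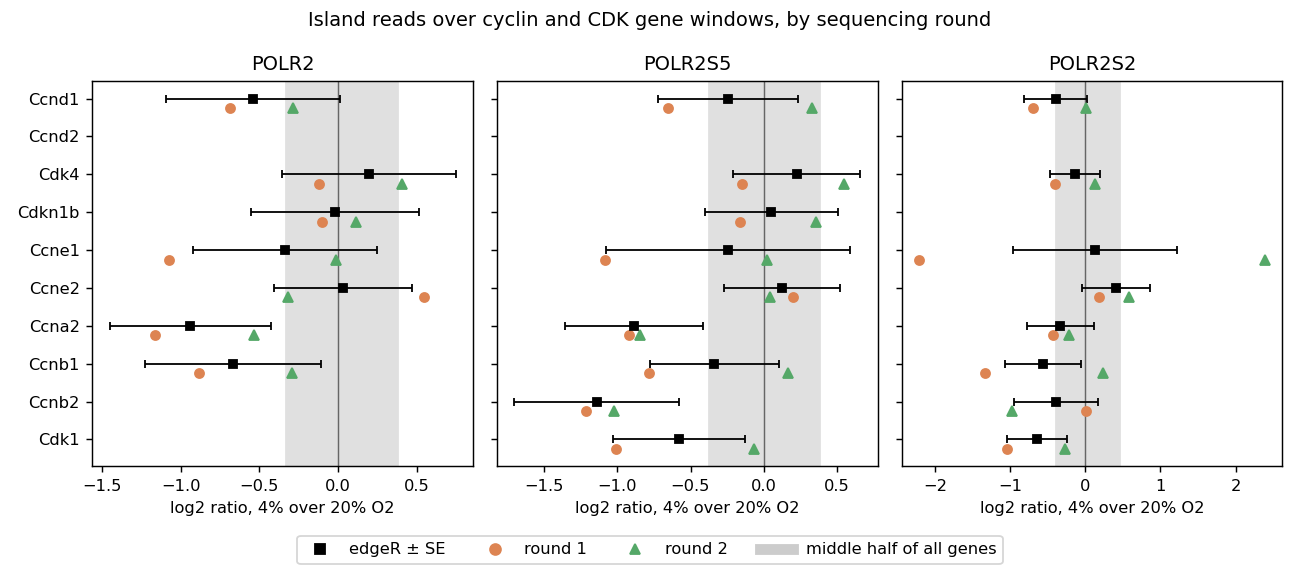
Log2 ratio of island reads, 4% over 20% O2, for each gene tested; squares with bars are edgeR estimates with their standard error, circles and triangles the ratio within rounds 1 and 2, and the grey band the range between the quartiles of all genes. The late-acting genes lie at -1.14 to -0.34 for POLR2S5, an order that changes with the block, with reads shared out by length, per kb of island and without the 20% O2 library of round 1, and round 1 lies below round 2 for most genes.

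Density within the window was also compared, because whole islands reach beyond the gene. It was ranked among the genes with an island in all 4 libraries, a view chosen after the values had been seen. Ccnb1 ranked lower at 4% O2 in all 3 forms with no overlap. Its ranks were 88.3 and 83.9 against 94.3 and 89.6 for POLR2, and 83.5 and 62.9 against 97.1 and 90.8 for POLR2S5. For POLR2S2 they were 65.8 and 65.7, against 94.2 and 88.0. The last difference was -28.4 points in round 1 and -22.3 in round 2. In 4% O2 round 2 the island that held Ccnb1 was 40.6 kb long for POLR2S5, against 14.6 to 21.6 kb in the other libraries, and 34.4 kb long for POLR2S2, against 18.0 to 19.6 kb. Sharing reads by length lowers the density over a gene under a longer island, and the round 2 ratio of whole POLR2S2 islands was 0.24. The part of island length in these ranks was not tested.

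Ccna2 ranked at 47.5 and 40.9 against 80.7 and 66.2 for POLR2S2 and at 71.1 and 60.5 against 87.3 and 71.9 for POLR2, with no overlap. Its POLR2S5 ranks of 69.7 and 56.2 against 85.9 and 60.0 overlapped. The POLR2S2 islands at Ccna2 were also longer at low oxygen, 21.2 and 21.2 kb against 11.2 and 16.8 kb. Ccnb2 had POLR2S5 ranks of 9.35 and 14.8 against 24.98 and 12.7, with rounds of opposite sign, and POLR2S2 ranks of 10.6 and 7.79 against 34.3 and 8.68, which overlapped. Ccnb2, low in every library, thus did not share the separation seen at Ccnb1. Cdk1 ranked at 60.6 and 67.7 against 80.2 and 76.1 for POLR2S5, also with no overlap, but its POLR2S2 ranks of 60.4 and 83.2 against 82.0 and 78.3 overlapped. Cdk4 was lower in all 3 forms with no overlap by small steps near the top, such as 95.2 and 95.9 against 96.3 and 99.3 for POLR2S5. Its islands were longer at low oxygen within each round, at 24.4 and 60.8 kb against 16.0 and 35.0 kb for POLR2. For POLR2S5 they were 36.8 and 65.4 kb against 27.6 and 35.0 kb. Its whole-island ratios were 0.20, 0.22 and -0.13 for the 3 forms. The part of island length at Cdk4 was not tested either. Among the genes tested, 3 of 7, 7 of 9 and 6 of 8 ranked lower in both rounds, against 31.6%, 30.5% and 32.9% of all genes, and 0 ranked higher in both, against 24.6%, 27.8% and 28.4%. Groups did not overlap on the lower side at 3, 5 and 4 genes, against 17.8%, 16.3% and 20%.

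The wider cell-cycle list of 59 genes, which holds other cyclins, kinases, inhibitors, retinoblastoma and E2F family members and mitotic regulators, did not lie on one side. Of its 34, 50 and 41 genes tested, 15, 25 and 18 lay below 0 for POLR2, POLR2S5 and POLR2S2, with medians of 0.11, -0.04 and 0.22. Of all 9245, 11534 and 9364 genes tested, 4692, 6035 and 4624 lay below 0. None of the list passed edgeR with or without the block. Without it 3, 2 and 1 had an unadjusted p under 0.05, beside 341, 398 and 592 of all genes. With the block 7, 8 and 3 had, beside 734, 1068 and 882 of all genes. DESeq2 called 2, 2 and 0 of the list, beside 114, 258 and 160 of all genes. E2f8, a repressor of E2F targets, had the lowest POLR2S5 ratio, -2.45 ± 0.62, and -1.61 ± 0.39 for POLR2. POLR2S5 islands at E2f8 held 34 and 95 reads at low oxygen, against 111 and 475, and their length was 1.4 and 2.6 kb against 5.2 and 16.2 kb.

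Tfdp1, the partner of E2F factors, had -1.65 ± 0.53 for POLR2, and Rbl2, a retinoblastoma relative of the DREAM complex, 1.60 ± 0.49. E2f2 had 1.56 ± 1.07 for POLR2S5 and Aurkb, a mitotic kinase gene, 1.43 ± 1.54. In 4% O2 round 2 their islands spanned 63.8 and 92.6 kb and reached beyond the gene. In 20% O2 round 2 they spanned 25.8 and 39.0 kb. For POLR2S2, Ccng2, an atypical cyclin linked to arrest, had 1.53 ± 0.75, from 881 and 1862 reads against 63 and 485. Cdkn2c (p18), an inhibitor of Cdk4, had 1.37 ± 0.56, from 114 and 312 reads against 23 and 57. Cul1, a scaffold of the SCF ubiquitin ligase, had -1.63 ± 0.59. These were the genes with the largest ratios of 1 sign in both rounds, 3 per form.

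Over the 12 polymerase libraries, the gene whose log2 density was most like that of Ccna2 was Ccnb1 (Pearson r = 0.97), and the same held in reverse. Cdk4 was most like Ccna2 (0.96), Cdkn1b like Ccng1 (0.95), Ccnd1 like Mycn (0.91) and Cdk1 like Aurka (0.80). Values for Ccne1 with Cdkn1a (0.77), Ccnb2 with Foxm1 (0.73) and Ccne2 with Mybl2 (0.65) were lower. The libraries share antibodies, rounds and depths, and genes under a common island were left out, so these values are descriptions with no test.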

How the data were processed

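The authors aligned reads to mm10 with BWA, used Picard, and called peaks with MACS2 and islands with SICER, per the submitters' processing notes, and versions and settings were not stated there. The deposited SICER lists give, per island, a whole-number count of reads made by the authors. The deposited MACS2 lists give a −log10 score by the authors, of a p or a q value, with a lowest value just above 2, and it was ranked only within a list. The 6 input libraries were not analysed here. The members and the gene lists were chosen with earlier results of these data known.

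Island reads were summed over gene windows (overlap of at least 1 bp) and tested per polymerase form with edgeR 4.0.16 in R 4.3.3 (quasi-likelihood, TMM, Benjamini-Hochberg adjustment over all genes with an island in all 4 libraries, threshold 0.05). DESeq2 1.42.0 was an alternative, as were a replicate block, other scalings and filters, and leaving out each library. Scripts were tested on simulated data. Replicate numbers are sequencing rounds on different flow cells, per the file headers, and deviations of same-numbered libraries correlated at 0.32, 0.39 and 0.32. There were 3 flow cells for the 2 rounds, so 1 round does not always mean 1 flow cell. The replicate 2 lists were filed under the first sample of their group and were assigned by name (12 of 12 equal the copy in scores and positions). All 10 genes are described. From the wider list, the 3 genes per form with the largest absolute ratio of 1 direction in both rounds are named.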

Additional observations from a re-analysis of the deposited data

How the results depend on the processing

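Depth is unknown, each group has 2 libraries, and whole islands join neighbouring genes. With the replicate block, 0 genes passed for each polymerase form, and no call changed. DESeq2 called 114, 258 and 160 genes for POLR2, POLR2S5 and POLR2S2, and 2, 2 and 0 of the wider list. Without 1 library, edgeR called 0 to 42 genes for POLR2 and 0 to 52 for POLR2S5, the highest without 4% O2 round 1, and the median ratio of the cyclin and kinase genes ran from -0.41 to -0.01, -0.54 to 0.04 and -0.58 to -0.02 for the 3 forms. Per kb of island the POLR2 median of these genes was -0.64, beside -0.57 over all genes.

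Gene windows called at one O2 level only numbered 94, 90 and 365 for the 3 forms and 382, 365 and 780 where an island's centre had to lie inside the window. Leaving out 1 library, chosen after seeing the data, gave 260 to 3195, 285 to 1429 and 651 to 2143, and moved H3K9ac from 59 to 188 to 367, CTCF from 103 to 473 to 887 and RAD21 from 231 to 434 to 1789; fewer libraries then decide a call.

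Of 24 single-gene ratios under 7 settings with all 4 libraries, 154 values kept their sign and 14 reversed. For POLR2, Cdkn1b became 0.00 with the block; with reads shared out by length Cdk4 became -0.46 and Ccne1 0.04, and per kb of island Cdk4 became -0.59 and Ccne2 -0.64. For POLR2S5, Cdk4, Cdkn1b and Ccne2 became -0.35, -0.05 and -0.24 with reads shared out, and -0.47, -0.18 and -0.47 per kb. For POLR2S2, Ccne2 became -0.12 with reads shared out and -0.46 per kb, and Ccne1 -0.95 per kb. Per kb of island the median of all genes was itself -0.57 for POLR2, -0.34 for POLR2S5 and -0.46 for POLR2S2. Cdk4 and Ccne2 lay -0.03 and -0.08 from that median for POLR2. Cdk4, Cdkn1b and Ccne2 lay -0.14, 0.15 and -0.13 from it for POLR2S5. Ccne2 and Ccne1 lay 0.01 and -0.48 from it for POLR2S2. The cause of the reversals was not tested.

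Without 1 library 77 values kept their sign and 19 reversed. The ranges for POLR2 were -0.96 to 0.06 for Ccnd1, -0.35 to 0.57 for Cdk4, -0.38 to 0.45 for Cdkn1b, -1.49 to 0.28 for Ccne1 and -0.34 to 0.59 for Ccne2. For POLR2S5 they were -0.56 to 0.34 for Ccnd1, -0.04 to 0.48 for Cdk4, -0.2 to 0.51 for Cdkn1b, -1.75 to 0.54 for Ccne1 and -0.54 to 0.04 for Ccnb1. For POLR2S2 they were -0.74 to 0.06 for Ccnd1, -1.5 to 1.65 for Ccne1 and -1.04 to 0.03 for Ccnb2.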
